A study of Mus musculus with 4 samples.

Results

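The 5 lineage transcription factors Irx1, Irx2, Pou3f4, Hhex and Meis2 were taken by name from the 19074 genes listed in single-cell counts of mouse islets, and their levels were followed in beta, alpha, delta and PP cells of each genotype. The question was whether factors of the other endocrine lineages are switched on in beta cells that lack Sel1L, the adaptor of an endoplasmic reticulum degradation complex that clears misfolded proteins such as proinsulin. The knockout group, Sel1LIns1, carries floxed Sel1L alleles and, as its name gives it, Cre under Ins1, and is set against Sel1Lf/f, called wild type in the labels, so that both groups carry the floxed alleles and no mice with Cre alone were included. Each genotype has 2 libraries, all C57BL/6; their age is 7 weeks in the labels of the samples but 5 weeks in the text on the series. Islets recovered overnight in culture, were dissociated with trypsin and were profiled with the 10x 3′ assay, which counts unique molecular identifiers (UMIs). The labels do not say whether the 2 libraries of a genotype come from separate animals, so the p-values measure the spread between libraries, which may be technical.

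The islet endocrine cells share a progenitor and are held apart by transcription factors that are kept on in one lineage and off in the others. Irx1 and Irx2 are Iroquois homeodomain proteins and Pou3f4, also called Brn4, is a POU-homeodomain protein; all are known in the islet from alpha cells, which make glucagon. Hhex is a homeodomain protein that mouse delta cells, which make somatostatin, need to form and to keep their identity, and it is also used by endothelial and blood lineages. Meis2 is a homeodomain protein of the TALE class that binds DNA together with PBX partners and is broadly used in development.

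In the mouse genome (GRCm38, GENCODE vM21), Irx1 lies at chr13:71957921-71963723 on the minus strand and Irx2 at chr13:72628820-72634198 on the plus strand, 665 kb apart. Hhex lies at chr19:37434810-37440731 on the plus strand, Pou3f4 at chrX:110814280-110817207 on the plus strand, and Meis2 at chr2:115863064-116065839 on the minus strand, with 19 annotated transcripts. Irx1 had no entry among the RefSeq promoters used, and the Meis2 window overlapped annotated exons. The sequences upstream of the start are therefore shown for the alpha factors Irx2 and Pou3f4 and the delta factor Hhex. They are RefSeq promoters of GRCm38.p6, read 5′ to 3′ on the plus strand and ended before the first annotated exon; the window is chr13:72628570-72628819 for Irx2, chrX:110814129-110814279 for Pou3f4 and chr19:37434591-37434809 for Hhex. Capitals mark matches, on either strand, to the CCAAT box (CCAAT) and the GC box (GGGCGG); the TATA box (TATAAA) was searched too.
Irx2: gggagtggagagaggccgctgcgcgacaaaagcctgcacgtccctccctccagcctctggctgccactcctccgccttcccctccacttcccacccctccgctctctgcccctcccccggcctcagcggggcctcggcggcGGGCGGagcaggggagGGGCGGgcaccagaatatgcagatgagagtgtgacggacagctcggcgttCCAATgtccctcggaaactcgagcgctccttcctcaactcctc
Pou3f4: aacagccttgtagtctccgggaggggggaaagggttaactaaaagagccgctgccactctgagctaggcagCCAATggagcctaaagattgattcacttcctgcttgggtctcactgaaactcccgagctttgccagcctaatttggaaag
Hhex: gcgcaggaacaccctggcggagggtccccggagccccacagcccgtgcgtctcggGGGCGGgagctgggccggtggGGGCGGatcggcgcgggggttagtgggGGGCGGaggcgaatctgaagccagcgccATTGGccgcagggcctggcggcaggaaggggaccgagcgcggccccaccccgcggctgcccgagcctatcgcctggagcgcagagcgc
The Irx2 window held 1 CCAAT box and 2 GC boxes, the Pou3f4 window 1 CCAAT box, and the Hhex window 1 CCAAT box and 3 GC boxes; none of the 3 held a TATA box. Of 32851 mouse promoters cut to the length of the Irx2 window, 33.8% held a CCAAT box, 32.7% a GC box and 12.4% a TATA box. The corresponding shares at the length of the Hhex window were 30.9%, 28.3% and 9.92%, and at that of the Pou3f4 window 20.1%, 16.8% and 7.34%. GC content was 68.4% in the Irx2 window, 51.7% in the Pou3f4 window and 77.2% in the Hhex window, against medians of 52.4%, 51.0% and 52.1% at the same lengths. These matches describe letters in the windows and were not tied to the levels below.

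Cells were classed by the share of their UMIs that came from hormone genes. Beta cells had at least 10% from Ins1 and Ins2, and alpha, delta and PP cells had insulin under 5%. Alpha cells had at least 3% from Gcg and under 3% from Sst, and delta cells the reverse. PP cells had at least 3% from Ppy and under 3% from both Gcg and Sst. Alpha and delta cells had no limit on Ppy, and cells with both Gcg and Sst at 3% or more were left out. The beta class held 2491 and 1399 knockout cells and 3766 and 3707 wild-type cells, the alpha class 772 and 334 against 1126 and 949, the delta class 308 and 231 against 462 and 538, and the PP class 229 and 119 against 142 and 232. The libraries held 99156230 to 228515309 UMIs, and pairs of libraries shared 1 to 9 cell barcodes. Insulin took a median of 39.6% and 43.7% of the UMIs of a knockout beta cell, against 68.0% and 68.6% in wild type. Levels are therefore given as non-hormone CPM, the UMIs of a gene per 1000000 non-hormone UMIs, that is, all UMIs except those of Ins1, Ins2, Iapp, Gcg, Sst, Ppy and Pyy. Sel1l itself, counted at its 3′ end, was at 87.0 and 91.8 non-hormone CPM in knockout beta cells, against 126 and 124 in wild type (log2 fold change -0.50, SE 0.0608, adjusted p = 0.00144, edgeR's quasi-likelihood test). The labels do not name the deleted exons, so a 3′ count does not check the deletion, and with libraries scaled by their total alone the Sel1l difference changed sign. Intervals and floors cover counting error only.

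The alpha factors stayed low in knockout beta cells. Irx1 was at 0.959 and 0.331 non-hormone CPM in knockout beta cells (56 and 12 UMIs in all), against 1.02 and 0.732 in wild-type beta cells (50 and 37 UMIs). Irx2 was at 3.34 and 2.46 in knockout beta cells (195 and 89 UMIs), against 3.02 and 3.24 in wild type (148 and 164 UMIs). Pou3f4 was at 0.257 and 0.276 in knockout beta cells (15 and 10 UMIs), against 0.531 and 0.198 in wild type (26 and 10 UMIs). For Irx2 and Pou3f4 the genotypes overlapped. For Irx1, knockout library 2 was the lowest of the 4 and knockout library 1 lay among the wild-type libraries. Set against alpha cells of the same library, the beta level of Irx1 was 0.862% and 0.296% of the alpha level in knockout, against 0.928% and 0.485% in wild type. For Irx2 these shares were 2.3% and 1.75% in knockout, against 2.0% and 1.94% in wild type, and for Pou3f4 1.44% and 1.32%, against 2.23% and 1.03%.

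**Figure D1:**
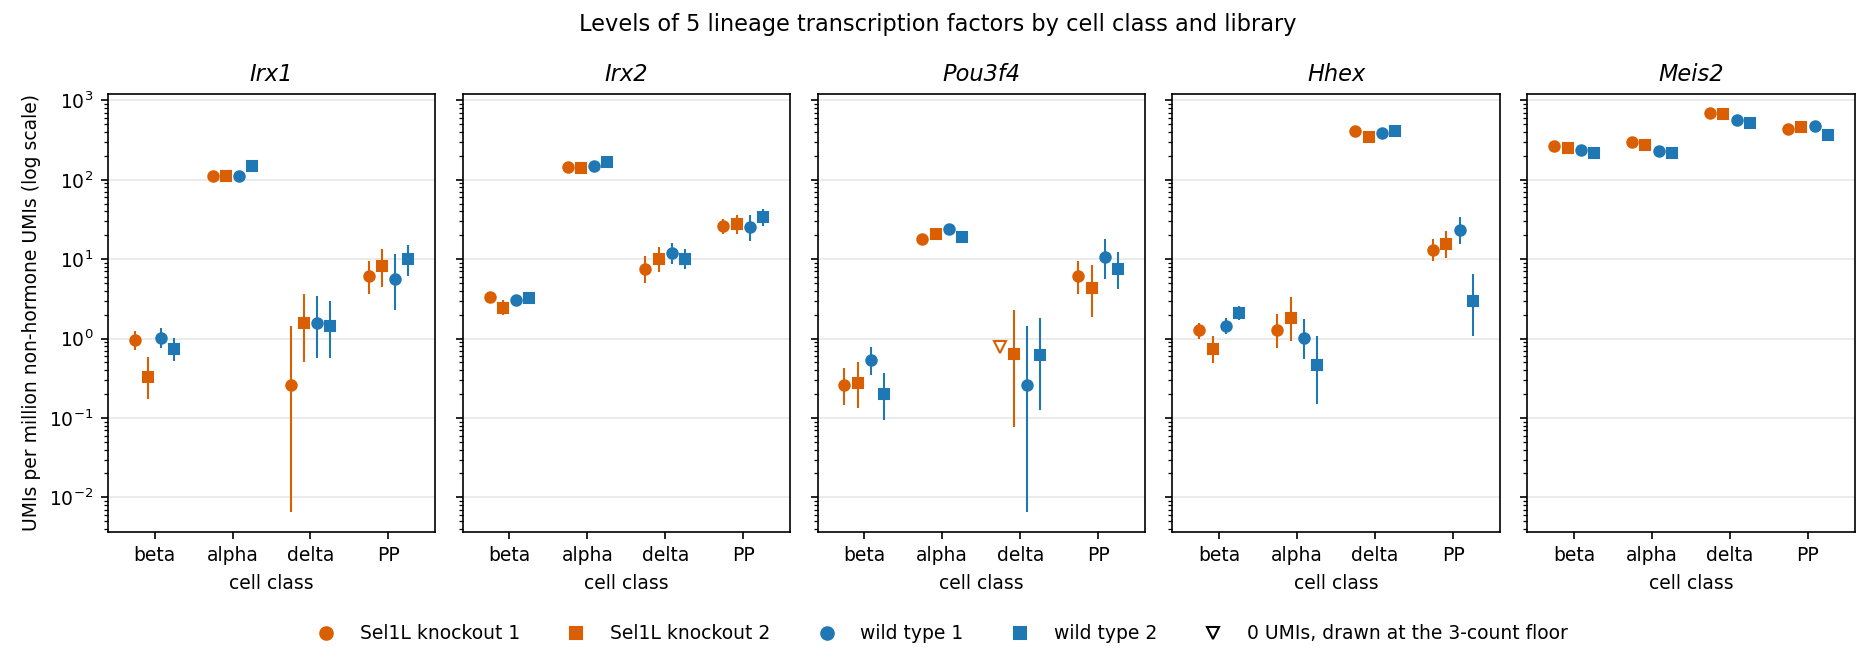
Level of each factor in non-hormone CPM (log axis) in beta, alpha, delta and PP cells; each point is the sum over the cells of 1 library, knockout left of wild type, with exact 95% Poisson intervals that cover counting error only, and an open triangle is a class with 0 UMIs drawn at the floor of 3 counts. Irx1, Irx2 and Pou3f4 stand highest in alpha cells and Hhex in delta cells in all 4 libraries, while Meis2 is above 200 in every class.

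The delta factor Hhex was low in beta cells of both genotypes too. It was at 1.27 and 0.746 non-hormone CPM in knockout beta cells (74 and 27 UMIs), against 1.45 and 2.12 in wild type (71 and 107 UMIs). Both knockout libraries lay below both wild-type libraries. The beta level was 0.311% and 0.215% of the delta level in knockout, against 0.370% and 0.515% in wild type.

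Meis2 differed from the other 4 in that beta cells carried it in quantity in both genotypes. It was at 270 and 254 non-hormone CPM in knockout beta cells, against 240 and 215 in wild type, which is 39.4% and 37.9% of the delta level in knockout and 42.1% and 41.4% in wild type. Both knockout libraries lay above both wild-type libraries. Counted per cell, the difference was wider: a knockout beta cell held a median of 6 Meis2 UMIs in each library, against 3 in each wild-type library. As CPM over all UMIs, hormones included, Meis2 was at 135 and 123 in knockout, against 65.0 and 56.4 in wild type.

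None of the 5 factors was called between genotypes in beta cells by edgeR's quasi-likelihood test on summed counts (adjusted p under 0.05). That test called 39.5% of the 15216 genes tested. DESeq2 also called 0 of the 5, where it called 5035 of the 15216. In edgeR's test 2 of the 5, Hhex and Meis2, had an unadjusted p under 0.05. The share of all genes under that unadjusted limit was not counted in any class, so such counts are not read as results. The log2 fold change of Meis2 was 0.19 (SE 0.0714, 95% interval 0.02 to 0.36, adjusted p = 0.0779). That of Hhex was -0.81 (SE 0.328, interval -1.60 to -0.02, adjusted p = 0.0934), and in beta cells with insulin at 20% of UMIs or more it was -0.96 (adjusted p = 0.0426). Irx2 was at -0.12 (interval -0.59 to 0.36), Irx1 at -0.39 (interval -1.52 to 0.74) and Pou3f4 at -0.46 (interval -1.75 to 0.83), with edgeR adjusted p of 0.668, 0.547 and 0.530. The intervals of Irx1, Pou3f4 and Hhex reach past -1 on the log2 scale and none of the 5 reaches 1 upward. With libraries scaled by their total alone, those of Irx1, Irx2, Pou3f4 and Meis2 reached up to 1.54, 1.26, 1.66 and 1.30, with the median gene at 0.90. Without wild-type library 1 the adjusted p of Meis2 in edgeR's test was 0.0293, and without knockout library 2 the values of Irx1 and Irx2 were 0.12 and 0.08.

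**Figure D2:**
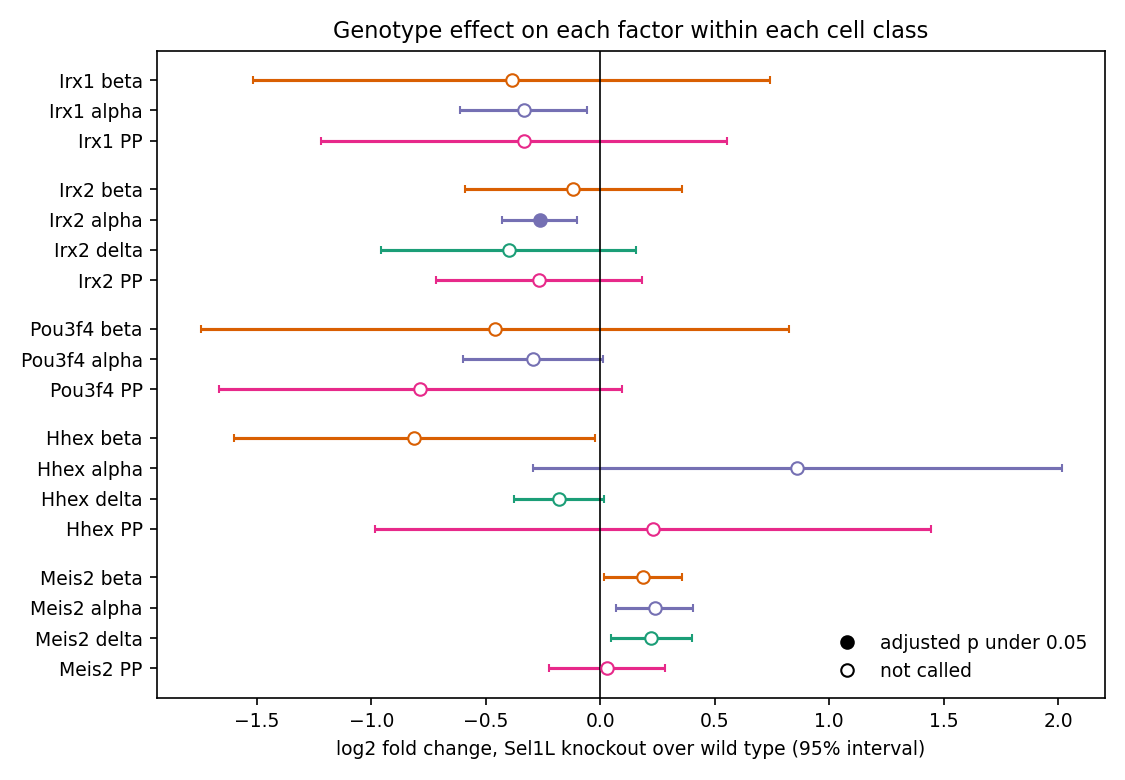
Log2 fold change of each factor, knockout over wild type, within each class, with 95% intervals from edgeR; filled points have an adjusted p under 0.05. Irx2 in alpha cells, at -0.26, is the only filled point of the 18 tested, and the intervals of Hhex and Meis2 in beta cells end close to 0.

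In beta cells the sign of 4 of the 5 factors changed with the scale. With libraries scaled by their total alone, the median gene moved by 0.90 on the log2 scale and 85.2% of genes were called, 97.8% of them higher in knockout. On that scale Meis2 was at 1.09 (edgeR adjusted p = 4.48e-06) and Irx2 at 0.79 (adjusted p = 0.00613), both called, while Irx1 was at 0.51, Pou3f4 at 0.42 and Hhex at 0.10. Meis2 lay above the shift of the median gene and the other 4 below it. With sums scaled by the number of cells, the median gene moved by 0.91 and the 5 factors had nearly the same values, with Meis2 at 1.09 and Irx2 at 0.77. Leaving the hormone genes out of the counts before scaling changed no sign.

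**Figure D3:**
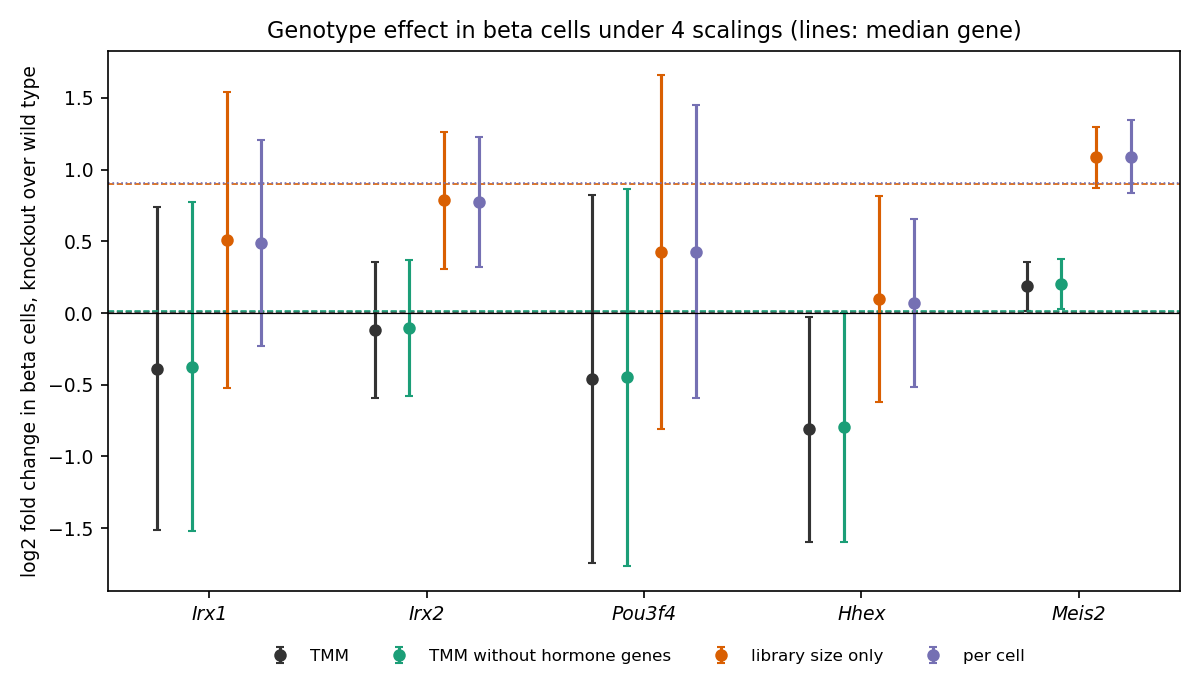
Log2 fold change in beta cells, knockout over wild type, for each factor under 4 scalings, with 95% intervals from edgeR; horizontal lines mark the median gene under each scaling, near 0 for both TMM fits and at 0.90 and 0.91 for library size and per cell. Meis2 lies above the line of its scaling in all 4, and the other factors lie below theirs.

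Few beta cells carried the alpha and delta factors. Of beta cells with at least 1 UMI of a factor, Gcg or Sst was at 0.5% of UMIs or more in 41 of 101 for Irx1, 46 of 395 for Irx2, 16 of 59 for Pou3f4 and 39 of 139 for Hhex, so that most were below that level. Beta cells with Gcg at 0.5% of their UMIs or more numbered 27 and 3 in knockout, against 41 and 19 in wild type, or 1.08% and 0.214% of beta cells, against 1.09% and 0.513%. They held 66.1% and 33.3% of the Irx1 UMIs of knockout beta cells, against 62.0% and 54.1% in wild type. Their Irx1 level was 40.5 and 32.7 non-hormone CPM in knockout, against 40.9 and 62.9 in wild type, between the levels of the beta and alpha classes. Beta cells with Sst at 0.5% or more numbered 7 and 5 in knockout, against 13 and 19 in wild type. These few cells held 50.0% and 48.1% of the Hhex UMIs of knockout beta cells, against 62.0% and 52.3% in wild type. Over all libraries, 23 beta cells had 2 or more Irx1 UMIs, of which 22 had Gcg or Sst at 0.5% or more and 11 were scored as doublets. For Hhex, 40 beta cells had 2 or more UMIs, of which 28 had Gcg or Sst at that level and 17 were scored as doublets. Irx2 was less tied to cells with Gcg or Sst: of 115 beta cells with 2 or more Irx2 UMIs, 32 had either at that level. Of the same 115 cells, 27 were scored as doublets. Only 2 beta cells had 2 Pou3f4 UMIs or more. Both had Gcg or Sst at that level and 1 was scored as a doublet.

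**Figure D4:**
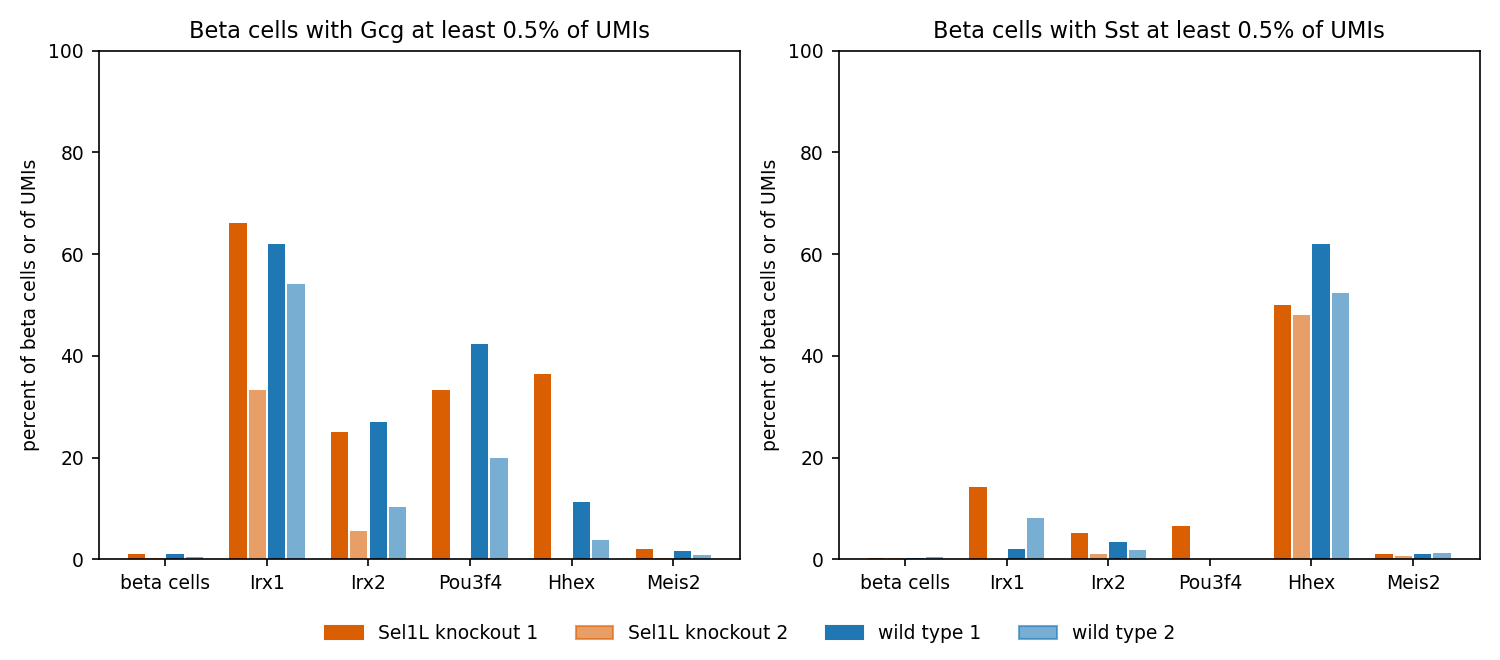
Percent of beta cells, and percent of each factor's UMIs in beta cells, found in beta cells with Gcg (left) or Sst (right) at 0.5% of UMIs or more; bars are single libraries, knockout left of wild type. At most 1.09% of beta cells held 33.3% to 66.1% of the Irx1 UMIs, and beta cells with Sst held 48.1% to 62.0% of the Hhex UMIs.

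In beta cells with both Gcg and Sst under 0.5%, Irx1 was at 0.331 and 0.223 non-hormone CPM in knockout, against 0.376 and 0.341 in wild type. Hhex was at 0.628 and 0.390 in knockout, against 0.543 and 1.0 in wild type, and Irx2 at 2.55 and 2.31, against 2.17 and 2.95. For Hhex and Irx2 the genotypes overlapped in these cells, and both Irx1 values of knockout lay below those of wild type. Pou3f4 was at 0.174 and 0.279 in knockout, against 0.313 and 0.160 in wild type, and Meis2 was nearly as in all beta cells, at 268 and 254, against 239 and 214. The log2 fold change of Hhex in these cells was -0.59 (edgeR adjusted p = 0.306) and that of Meis2 0.19 (adjusted p = 0.0748). Irx1 was at -0.35 (interval -1.31 to 0.62, edgeR adjusted p = 0.528) and was not called. Irx2 was at -0.09 (adjusted p = 0.764) and Pou3f4 at -0.12 (adjusted p = 0.876).

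The share of beta cells with a UMI was read against a class that should lack the gene. Irx1 was seen in 1.28% and 0.572% of knockout beta cells, against 0.956% and 0.674% in wild type, at a median of 44119 to 51345 UMIs a cell. In delta cells, at a median of 11485 to 18194 UMIs, it was seen in 0.325% and 2.16% of knockout cells, against 1.08% and 1.30% in wild type. Pou3f4 was seen in 0.562% and 0.715% of knockout beta cells, against 0.664% and 0.270% in wild type, and in 0% and 0.866% of knockout delta cells, against 0.216% and 0.558% in wild type. It was seen in 0 of 308 delta cells in knockout library 1, which, by the limit of 3 counts that a count of 0 allows, leaves a share of cells with a UMI of up to 0.974%. Hhex was seen in 1.41% and 1.0% of knockout beta cells, against 0.876% and 1.54% in wild type. In alpha cells, at a median of 17704 to 26714 UMIs, it was seen in 1.42% and 0.898% of knockout cells, against 0.888% and 0.527% in wild type. With every cell thinned to 10000 UMIs, Irx1 was seen in 0.321% and 0.137% of knockout beta cells, against 0.297% and 0.187% in wild type, and in 0.138% and 1.09% of knockout delta cells, against 0.631% and 0.836% in wild type. Thinning left 2456 and 1368 knockout and 3686 and 3690 wild-type beta cells, and 298 and 224 knockout and 346 and 445 wild-type delta cells. Thinned in the same way, Pou3f4 was seen in 0.125% and 0.124% of knockout beta cells, against 0.143% and 0.0538% in wild type, and in 0% and 0.375% of knockout delta cells, against 0.275% and 0.488% in wild type. For Hhex the thinned shares were 0.371% and 0.258% in knockout beta cells, against 0.273% and 0.458% in wild type. In alpha cells they were 0.486% and 0.495% in knockout, against 0.434% and 0.272% in wild type. The Hhex share of beta cells passed the highest alpha share only unthinned, in wild-type library 2, and is not read as a difference. Over all beta cells, the shares of Irx1 and Pou3f4 did not pass the highest share in delta cells, thinned or not. They are not read as a difference from delta cells. That highest delta share of Irx1 rested on 5 UMIs in knockout library 2, and the delta share of knockout library 1, at 0.325%, lay below the unthinned shares of all 4 beta libraries.

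Irx2 was the most frequent of the alpha factors in beta cells, seen in 4.82% and 3.86% of knockout beta cells, against 2.71% and 3.21% in wild type. With cells thinned to 10000 UMIs these shares were 1.56% and 1.18% in knockout, against 0.845% and 0.886% in wild type. When cells were thinned to 5000 non-hormone UMIs, they were 1.44% and 1.15% in knockout, against 1.20% and 1.35% in wild type. The genotypes therefore overlapped once hormones were left out. Endothelial cells had a median of 5859 to 9561 UMIs. Only 82 and 72 knockout and 54 and 54 wild-type endothelial cells were deep enough for thinning to 10000 UMIs. Their thinned shares were 1.14% and 0.790% in knockout, against 0% and 0% in wild type, and all endothelial cells together held 2 and 1 Irx2 UMIs in knockout and 2 and 0 in wild type. In non-hormone CPM, endothelial Irx2 was at 0.817 and 0.458 in knockout, against 1.45 and 0 in wild type, below the beta level of the same library in all 4. The exact 95% Poisson intervals of the 2 classes were apart in wild-type library 2, where the beta interval began at 2.77 and the endothelial one ended at 2.45, and overlapped in the other 3. As CPM over all UMIs, Irx2 was at 1.67 and 1.19 in knockout beta cells, against 0.820 and 0.849 in wild type, and at 0.813 and 0.457 in knockout endothelial cells, against 1.44 and 0 in wild type, so that wild-type library 1 had the opposite order on that scale. Within beta cells, Irx2 was higher where Pyy, a peptide hormone of the gut that PP, delta and alpha cells also carried here, was high. Beta cells with Pyy at 1% of UMIs or more made up 57.9% and 32.0% of knockout beta cells, against 3.77% and 3.21% in wild type. Irx2 was at 4.30 and 4.28 in those cells of knockout, against 25.8 and 19.1 in wild type, and in the remaining beta cells at 2.07 and 1.64, against 2.10 and 2.68. Beta cells without a Mafa UMI, the factor of mature beta cells, made up 48.3% and 39.6% of knockout beta cells, against 10.9% and 9.44% in wild type. Irx2 was at 3.98 and 3.70 in them in knockout, against 9.05 and 13.0 in wild type. In all beta cells it was at 3.34 and 2.46 in knockout, against 3.02 and 3.24 in wild type. These splits are descriptions over cells of the same libraries.

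Meis2 was seen in 71.7% and 68.6% of knockout beta cells thinned to 10000 UMIs, against 46.9% and 42.5% in wild type, and in 1.20% and 5.48% of knockout macrophages (74 and 58 cells), against 1.16% and 2.02% in wild type (69 and 66 cells). Unthinned, the beta shares were 97.4% and 96.9% in knockout, against 90.2% and 89.2% in wild type. When cells were thinned to 5000 non-hormone UMIs, they were 71.6% and 69.7% in knockout, against 67.3% and 64.0% in wild type. The knockout libraries lay above the wild-type libraries on each scale, and the gap was narrower once hormones were left out. An exact two-sided permutation test of 2 against 2 libraries cannot give a p under 0.33.

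Levels of other cell types' markers in beta cells stood beside these values. The 8 alpha markers counted, none of them at 0, summed to 612 and 565 non-hormone CPM in knockout beta cells, against 1250 and 1367 in wild type. The 5 delta markers counted, none at 0, summed to 183 and 129 in knockout, against 247 and 144 in wild type. Their part in the levels of the 5 factors was not tested.

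In their own lineages the factors kept their places in both genotypes. In alpha cells Irx1 was at 111 and 112 non-hormone CPM in knockout, against 110 and 151 in wild type. Irx2 was at 145 and 140 in knockout alpha cells, against 151 and 167 in wild type, and Pou3f4 at 17.9 and 20.9, against 23.8 and 19.3. Irx2 was lower in both knockout libraries than in both wild-type libraries, and the genotypes overlapped for Irx1 and Pou3f4. At least 1 of the 3 was seen in 94.2% and 94.9% of knockout alpha cells, against 90.8% and 92.8% in wild type. Irx2 was the only factor called in alpha cells, where 13.7% of 12944 genes were called. It fell by 0.26 on the log2 scale (SE 0.0722, adjusted p = 0.0431, edgeR). An unadjusted p under 0.05 was found for 3 of the 5 in edgeR's test, a count with no share of all genes beside it. DESeq2 gave Irx2 an adjusted p of 0.0618, and the edgeR call was lost without knockout library 1, without knockout library 2 or without wild-type library 2 (adjusted p = 0.100, 0.194 and 0.162). With libraries scaled by their total alone, Irx2 in alpha cells was at -0.04, and scaled by cell number at 0.52.

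In alpha cells the other 4 were not called, with Meis2 at 0.24 (edgeR adjusted p = 0.0635), Irx1 at -0.33 (adjusted p = 0.101), Pou3f4 at -0.29 (adjusted p = 0.179) and Hhex at 0.86 (adjusted p = 0.293). With no filter on low counts, edgeR called Irx1 (adjusted p = 0.00106) and Meis2 (adjusted p = 0.0206), and with doublets removed it called Meis2 (adjusted p = 0.0490). Without wild-type library 1, Irx1 was at -0.54 (edgeR adjusted p = 0.00716), and without wild-type library 2 at -0.10 (adjusted p = 0.492). Leaving out 1 library at a time, Pou3f4 ranged from -0.44 to -0.12, Meis2 from 0.17 to 0.31 and Hhex from 0.43 to 1.56. Hhex had 18 and 11 UMIs in knockout alpha cells, against 13 and 5 in wild type. Meis2 was at 297 and 275 non-hormone CPM in knockout alpha cells, against 232 and 217 in wild type, with no overlap between genotypes.

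In delta cells Hhex was at 407 and 347 non-hormone CPM in knockout, against 392 and 411 in wild type, and Meis2 was at 685 and 670, against 570 and 520. The genotypes overlapped for Hhex and not for Meis2. None of the 3 factors that passed the filter on low counts in delta cells was called by edgeR. Of 11722 genes tested, 6.69% were called. In edgeR's test 1 of the 3, Meis2, had an unadjusted p under 0.05. DESeq2 called neither Meis2 nor Hhex (DESeq2 adjusted p = 0.134 and 0.282). It gave Irx2 no adjusted p and so could not call it. Meis2 was at 0.22 on the log2 scale (edgeR adjusted p = 0.111), Hhex at -0.18 (adjusted p = 0.241) and Irx2 at -0.40 (adjusted p = 0.358). Leaving out 1 library at a time, Meis2 ranged from 0.15 to 0.29, Hhex from -0.31 to -0.087 and Irx2 from -0.63 to -0.20, with none called. Irx1, with 1 and 5 UMIs in knockout against 6 and 7 in wild type, and Pou3f4, with 0 and 2 against 1 and 3, did not pass the filter. The delta class also carried other hormones, with medians of 4.69% to 6.12% Ppy and 9.07% to 10.4% Pyy over the libraries.

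Summed over PP cells, each of the 5 factors stood between its level in beta cells and that in the class where it was highest. Irx2 was at 26.2 and 27.5 non-hormone CPM in knockout PP cells, against 25.1 and 33.7 in wild type, and Irx1 at 6.06 and 8.09, against 5.67 and 9.91. Meis2 was at 438 and 469 in knockout, against 474 and 367 in wild type, and Pou3f4 at 6.06 and 4.31, against 10.5 and 7.43. Irx1, Irx2 and Meis2 overlapped between genotypes, and Pou3f4 was lower in both knockout libraries. Hhex was at 13.1 and 15.6 in knockout, against 23.5 and 2.97 in wild type, so that the wild-type libraries enclosed the knockout ones. These Hhex sums came from few cells. In knockout, 12 of 229 PP cells held 41 UMIs and 5 of 119 held 29. In wild type, 8 of 142 held 29 and 3 of 232 held 6. The beta level in wild-type library 2 was 2.12, close to its PP level. None of the 5 was called by edgeR, where 4.98% of 10496 genes were called, and 0 had an unadjusted p under 0.05. DESeq2 gave an adjusted p to Meis2 alone (0.965), which was not called. Irx1, Irx2, Hhex and Pou3f4 got no adjusted p from DESeq2 and could not be called by it. Without wild-type library 1, Hhex in PP cells was at 2.13 (edgeR adjusted p = 0.00733), and without wild-type library 2 at -0.82.

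Each of the alpha factors and Hhex differed far more between its own lineage and beta cells than between genotypes. In the fit of alpha and beta cells with the library as a block, 4 of the 5 factors were higher in alpha cells in knockout, where 30.8% of genes were, and the same number in wild type, where 29.4% were. The log2 difference, alpha minus beta, was 7.35 in knockout and 7.38 in wild type for Irx1 (edgeR adjusted p = 1.67e-11 and 7.08e-12), 5.65 and 5.84 for Irx2, and 6.21 and 6.08 for Pou3f4. For Meis2 it was 0.19 in knockout and 0.16 in wild type, and its level in non-hormone CPM was about equal in the 2 classes in wild type. Hhex, at 0.61 in knockout and -1.03 in wild type, was called in neither. The call of Meis2 was lost in knockout without knockout library 1 (edgeR adjusted p = 0.102) and in wild type without either wild-type library (adjusted p = 0.0841 and 0.127).

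Between delta and beta cells, Hhex, Meis2 and Irx2 were higher in delta cells in both genotypes, where 24.9% of genes were in knockout and 23.1% in wild type. The log2 difference, delta minus beta, was 8.38 in knockout and 7.79 in wild type for Hhex, 1.26 and 1.24 for Meis2, and 1.48 and 1.77 for Irx2. All 5 factors were higher in PP than in beta cells in both genotypes, where 18% of genes were in knockout and 18.8% in wild type. The log2 difference, PP minus beta, ran in knockout over 0.76 for Meis2, 3.16 for Irx2, 3.38 for Irx1, 3.77 for Hhex and 4.26 for Pou3f4. In wild type these were 0.94, 3.30, 3.28, 2.68 and 4.77. Hhex in wild-type PP cells was at 0.54 (edgeR adjusted p = 0.642) without wild-type library 1.

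The knockout effect in beta cells was also set against the knockout effect in each other class. None of the 5 differences was called for alpha cells, where 22.5% of genes were, nor for delta cells, where 16.4% were, nor for PP cells, where 13.4% were. The smallest edgeR adjusted p was that of Hhex in beta against delta cells, with a difference of -0.60 (interval -1.04 to -0.15, adjusted p = 0.0686). Without knockout library 1 it was -0.96 (edgeR adjusted p = 0.00712) and without wild-type library 1 -0.83 (adjusted p = 0.0236). For Meis2 the differences were -0.03 against alpha cells (interval -0.18 to 0.11), -0.02 against delta cells (interval -0.15 to 0.11) and 0.18 against PP cells (interval -0.03 to 0.40). With libraries scaled by their total alone, the Meis2 differences were 0.63, 0.72 and 0.64 (edgeR adjusted p = 9.02e-05, 1.37e-06 and 9.21e-05).

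Outside the endocrine classes, Hhex was at 47.0 and 55.5 non-hormone CPM in knockout endothelial cells, against 58.1 and 69.0 in wild type, and at 30.7 and 43.6 in knockout macrophages, against 35.9 and 38.6 in wild type. Meis2 was at 112 and 113 in knockout endothelial cells, against 81.3 and 127 in wild type. Pou3f4 had 0 UMIs in endothelial cells and macrophages of all 4 libraries, at up to 167 and 127 cells a library.

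Across the 16 sums of 4 classes and 4 libraries, Irx1 and Irx2 followed each other (Pearson r = 0.966 of log2 levels), as did Irx1 and Pou3f4 (r = 0.943) and Hhex and Meis2 (r = 0.926). The sums share libraries and depth, and these are descriptions. Among 10543 genes, those most like each factor were Higd1a, Rpl14 and Rpsa for Irx1 (r = 0.985, 0.977 and 0.977), Rragb, Nudt11 and Rpl13 for Irx2 (r = 0.986, 0.981 and 0.980), and Adrb1, Igsf21 and Pdk4 for Pou3f4 (r = 0.988, 0.981 and 0.975). For Hhex they were Ptprz1, Lmo3 and Sftpd (r = 0.994, 0.991 and 0.986), and for Meis2 Cdh2, Tcea3 and Nrp2 (r = 0.968, 0.967 and 0.964).

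Other factors of the same families moved in both directions in knockout beta cells. Of 17 listed relatives, 12 were in the files and 10 were tested: 3 rose and 2 fell, with a median of 0.17 on the log2 scale. Over all genes tested in beta cells 19.5% rose and 20.1% fell, with a median near 0. The DNA partner Pbx2 (0.32) and the related Pknox2 (2.77, on a level under 0.4 non-hormone CPM) were among those that rose. Pbx4 (-0.82) and Meis3 (-0.43) fell. With libraries scaled by their total alone, 8 of the relatives were called higher and 0 lower, and both that fell changed sign. On that scale 12688 of all 15216 genes tested were called higher and 279 lower.

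Of 10 further transcription factors of non-beta lineages, 5 were called higher in knockout beta cells, none lower and 5 neither way, with a median of 0.23. For these and the pan-endocrine factors below, the shares over all genes tested were 19.5% called higher and 20.1% lower. Sox4 (0.44), Foxp1 (0.40) and Foxp4 (0.47) had the smallest p, and Foxp2 (0.63), named after its values were seen, was called too. Of 11 pan-endocrine factors, 2 rose, Scrt1 (2.45) and Rfx6 (0.38), 2 fell, Nkx2-2 (-0.96) and St18 (-0.26), and 7 were not called, with a median of -0.05. St18 changed sign, to 0.63, with libraries scaled by their total alone, and Nkx2-2 was then at -0.07. On that scale 8 of the 10 non-beta factors and 10 of the 11 pan-endocrine factors were called higher and none lower. Of all 15216 genes tested, 12688 were called higher and 279 lower on that scale.

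Among the 9 alpha markers, 2 were higher in knockout beta cells, 3 were lower and 4 passed in neither direction, with a median of -0.53. Over all genes tested in beta cells, 19.5% were called higher and 20.1% lower. Slc38a5 (1.48) was among those that rose, and Tmsb15l (-2.27), Ttr (-1.73) and Sphkap (-0.62) fell. Of 5 delta markers tested, 1 rose, Sst (-0.80) fell and 3 were not called, with a median of -0.58. Both genes listed as PP markers rose, Ppy by 1.57 and Pyy by 2.91 on the log2 scale. Both were highest in PP cells but not particular to them. In delta cells Pyy was at 141850 and 131733 non-hormone CPM in knockout, against 145015 and 156070 in wild type. Ppy was at 95043.2 and 76464.4 in knockout delta cells, against 87222.8 and 75177.5 in wild type. Alpha cells carried both genes too, above the beta level of the same library. Sphkap and Sst changed sign with libraries scaled by their total alone.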

How the data were processed

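In all, 4 libraries were analysed, 2 per genotype. The authors deposited raw UMI counts per gene and cell, made per the submitters' processing notes with Cell Ranger 3.0.0, Seurat 2.3.4 and the mm10 genome; filters and annotation are not given in the sources used here. The deposited cells had at least 501 detected genes and at most 9.96% mitochondrial UMIs, so no further filter was set. Classes followed hormone shares, and counts were summed per class and library. The 5 factors were chosen by name, and all lists and tests were chosen with earlier results of these data known. Genotypes were compared with edgeR 4.0.16 in R 4.3.3 (quasi-likelihood, TMM, filterByExpr, Benjamini-Hochberg over all genes tested, adjusted p under 0.05), and classes in 1 fit per pair with the library as a block; DESeq2 1.42.0 was an alternative. Doublets, scored as Scrublet does at 0.8% per 1000 cells (150 and 49 in knockout, 283 and 273 in wild type), stayed in the main sums. Thinned shares are expected values at a fixed number of UMIs. Poisson and Clopper-Pearson intervals are at 95%. Besides the 5, the text names Sel1l, up to 3 called genes per list and direction in beta cells (by p), and the 3 genes best correlated with each factor among those averaging 5 CPM or more; exceptions are stated, and a few genes that this rule names are not reported here. Scripts were tested on simulated data. Depth is given in the report. Alternatives were other scalings, filters, class limits, thinning and leaving out each library.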

Additional observations from a re-analysis of the deposited data

How the results depend on the processing

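Class differences that were called in the main fit kept their direction under every alternative tried, and 140 of 144 kept their side of the threshold. The exceptions are Meis2 between alpha and beta cells and Hhex between PP and beta cells, each without 1 library. Differences not called in the main fit were left out of this count. They are Hhex between alpha and beta cells, and Irx1 and Pou3f4 between delta and beta cells, in both genotypes. With libraries scaled by their total alone, 12967 genes were called in beta, 3384 in alpha and 3711 in PP cells. With sums scaled by cell number, 13090 were called in beta, 11147 in alpha, 8942 in delta and 8390 in PP cells. DESeq2 called 885, 394 and 236 in alpha, delta and PP cells, and no filter on low counts gave 2755, 1639 and 1052. The main counts were 1779, 784 and 523.

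In beta cells, the 5 factors on the total-only scale were at 0.51 (Irx1), 0.79 (Irx2), 0.10 (Hhex), 0.42 (Pou3f4) and 1.09 (Meis2), and by cell number at 0.49, 0.77, 0.069, 0.43 and 1.09. With thinned totals Irx2 was at 0.058, and in beta cells with insulin at 20% or more Hhex was at -0.96. By cell number in alpha cells, Irx1 was at 0.45, Irx2 at 0.52 and Pou3f4 at 0.49, and in delta cells Irx2 was at 0.28 and Hhex at 0.50. In PP cells Irx1 and Irx2 were at 0.081 and 0.15 on the total-only scale, and Irx1, Irx2 and Pou3f4 at 0.49, 0.56 and 0.019 by cell number. The beta effect minus the alpha effect, on the total-only scale, was 0.85 for Irx2, 0.52 for Pou3f4 and 0.63 for Meis2. Minus the delta effect it was 0.15 for Hhex and 0.72 for Meis2, and minus the PP effect 0.64 for Meis2. The cause was not tested.

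The replicate numbers were not stated to pair libraries, and deviations of same-numbered libraries had correlations of -0.10 to 0.07 over the 4 classes. With the replicate block Hhex in beta cells was at -0.81 (edgeR adjusted p = 0.0381), Irx1 and Meis2 in alpha cells were at -0.31 and 0.24 (adjusted p = 0.0415 and 0.0395), and 1048 genes were called in PP cells.

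Leaving out 1 library at a time gave 3406 to 5854 called genes in beta, 209 to 1095 in alpha, 225 to 654 in delta and 439 to 932 in PP cells. In beta cells Irx1 ranged from -1.39 to 0.12, Irx2 from -0.35 to 0.082, Hhex from -1.26 to -0.49, Pou3f4 from -0.99 to 0.38 and Meis2 from 0.13 to 0.24. In PP cells Irx1 ranged from -0.63 to 0.19, Irx2 from -0.44 to 0.00095, Hhex from -0.82 to 2.13 and Meis2 from -0.15 to 0.20. The beta effect minus the alpha effect ranged from -1.04 to 0.48 for Irx1, -0.034 to 0.31 for Irx2, -0.55 to 0.51 for Pou3f4 and -0.061 to 0.0012 for Meis2. Minus the delta effect it ranged from -0.96 to -0.31 for Hhex and -0.052 to 0.0055 for Meis2. Meis2 in alpha minus beta cells ranged from 0.13 to 0.15 in wild type and 0.15 to 0.21 in knockout, and Hhex in PP minus beta cells from 0.54 to 4.06 in wild type. With 1 library left in a group, that library is assumed to vary like the other group.

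The mean share of beta cells with a UMI, unthinned, was 0.928% in knockout and 0.815% in wild type for Irx1, 4.34% and 2.96% for Irx2, 1.20% and 1.21% for Hhex, 0.638% and 0.467% for Pou3f4, and 97.1% and 89.7% for Meis2. At 5000 non-hormone UMIs the wild-type share was 0.321% for Irx1, 1.27% for Irx2, 0.509% for Hhex and 65.6% for Meis2, and the knockout share 0.123% for Pou3f4. For Irx2 at that depth the knockout libraries were at 1.44% and 1.15%, against 1.20% and 1.35% in wild type. Depth limits Irx1, Pou3f4 and Hhex in beta cells, at 10 to 107 UMIs a library.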
